A study of Homo sapiens with 20 samples.

Results

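miR-210-3p is the mature microRNA (miRNA) cut from the 3′ arm of the MIR210 hairpin. It was taken by name from the deposited tables, where it was 1 of 2588 mature miRNAs, and its count was followed through all 20 small RNA libraries of 8 groups. The human cell lines were HCT116, from a colon cancer, and HEK293E, of embryonic kidney origin. DROSHA knockout cells of each line were given back either the full-length protein or the shorter DROSHA-p140, which makes 4 rescue groups of 3 libraries each. A single library came from HCT116 knockout cells that received GFP, and a single one from untreated wild-type HCT116 cells. In the last 2 groups, wild-type HCT116 cells grew for 72 hr in either 9.1% or 0.1% fetal bovine serum (FBS), again in 3 libraries each. What drives the rescue constructs, and whether each knockout line is 1 clone, is not stated in the labels. No label names an oxygen treatment.

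DROSHA is the nuclease that, with its partner DGCR8, releases miRNA hairpins from primary transcripts within the nucleus, and DICER then cuts the hairpin into its mature arms. Transcription of MIR210 is induced by the hypoxia-inducible factors (HIFs), and miR-210-3p is the miRNA whose rise in low oxygen is seen across the widest range of cell types. Its known targets include ISCU, a scaffold for iron-sulfur cluster assembly, COX10, needed for cytochrome c oxidase, and EFNA3, an ephrin ligand, so that it is known for lowering mitochondrial respiration and for a role in vessel growth. Raised levels are a common feature of solid tumours, colon cancers among them.

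The sequences of both arms and of the hairpin are shown because reads are counted for each arm and because DROSHA acts on the hairpin. They are RefSeq's for GRCh38.p14, the assembly also called hg38, and 1 of 1 member matched by name. In the mature arms the capitals mark the seed, bases 2 to 8, which pairs with target transcripts. In the hairpin the capitals mark the 5p arm first and the 3p arm second.
miR-210-3p: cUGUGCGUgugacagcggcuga
miR-210-5p: aGCCCCUGcccaccgcacacug
MIR210 hairpin: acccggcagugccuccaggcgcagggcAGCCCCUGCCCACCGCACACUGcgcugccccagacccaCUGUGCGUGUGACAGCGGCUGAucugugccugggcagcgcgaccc
The hairpin occupies chr11:568089-568198 on the minus strand, with the 3p arm at chr11:568112-568133 and the 5p arm at chr11:568150-568171, counted from 1.

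The MIR210 hairpin is rich in G and C. Its 110 bases were 72.7% G or C, above 94.3% of 1562 reference hairpins, whose median was 52.1%. The mature 3p arm was 63.6% G or C, against a median of 52.2% over 2370 reference mature miRNAs. Its seed was not shared: 0 of the other mature sequences had the same bases 2 to 8. A single one, miR-147b at chr15:45433098-45433118 on the plus strand, had the same bases 2 to 7, and it is printed to show where the 2 sequences part, with bases 2 to 8 in capitals.
miR-147b: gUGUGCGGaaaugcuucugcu
miR-147b had 169 reads over the 20 libraries, with at most 32 in a library, against 12790 reads of miR-210-3p. The motif CNNC, on the transcript strand, is a known aid to DROSHA cleavage when it lies downstream of the hairpin base. A script found it starting 18 bases after the last base of the 3p arm, within the window of 16 to 18 bases searched. The same window held it in 39 of the 82 reference hairpins with enough flanking sequence, or 47.6%, and a match is a description of the letters only.

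The hairpin lies in an intron. In GENCODE 29 it is inside MIR210HG, a long noncoding RNA gene on the same strand, and touches no exon in any of 4 transcripts. The intron was 477 to 796 bases long depending on the transcript. It began 132 to 153 bases before the hairpin at its 5′ splice site and ended 235 to 533 bases after it at its 3′ splice site. Among the 266 miRNAs tested in rescued HCT116 cells whose hairpins are all intronic, 39 had a shortest host intron below that of MIR210, and the median was 6930 bases.

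Libraries differed in depth and in makeup. They held from 38288 reads, in the knockout with GFP, to 2822317 reads, and within each line and replicate number the p140 library was shallower than the full-length one. The share of reads from 22 miRNAs that are made without DROSHA (mirtrons, miR-320a, miR-484 and the like) checked the labels: it was 1.27% in the untreated wild type and 69.7% in the knockout with GFP. In rescued HCT116 cells the share averaged 4.09% ± 1.19 (SD, n = 3) for the full-length protein and 15.7% ± 7.55 for p140, and in HEK293E 11.3% ± 0.878 and 17.7% ± 2.27. In both rescued HCT116 groups replicate 3 stood apart with the smallest share of its group, 2.74% and 7.05%. The summed level of 8 colon epithelial miRNAs (the miR-200 family, miR-192, miR-194 and miR-215) was 40218 to 52829 counts per 1000000 reads (CPM) in wild-type HCT116 libraries. It was 493 to 562 CPM in knockout HCT116 cells with full-length DROSHA and 589 to 682 CPM in the kidney line with the same protein. These sums are in plain CPM, and the members did not all move alike, as given with the tests below. Of 12 markers of blood, muscle, liver and nerve cells, 8 were over 10 CPM in some library of full-length HEK293E and 9 of p140 HEK293E. The number was 5 in full-length HCT116, 3 in p140 HCT116, 4 in each wild-type HCT116 group and 2 in the knockout with GFP. Among them miR-206 had 0 reads in 8 of 8 groups, and the summed level of the list was led by miR-9-5p in every group.

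miR-210-3p was a well-detected miRNA in all groups but the knockout with GFP. Levels are given as CPM, reads per 1000000 miRNA reads of the library. With full-length DROSHA in HCT116 the 3 libraries had 832, 1110 and 964 reads, or 1049, 1270.4 and 1262 CPM, and it ranked 79 to 85 among miRNAs. With p140 they had 148, 228 and 240 reads, or 482, 746 and 734 CPM, and ranks of 90 to 105. All 3 p140 libraries lay below all 3 full-length ones. In HEK293E the full-length libraries had 169, 86 and 141 reads, or 754, 369 and 420 CPM. The HEK293E p140 libraries had 53, 35 and 55 reads, or 392, 189 and 224 CPM, and replicate 1 was the highest in both HEK293E groups. Wild-type HCT116 in 9.1% FBS had 351, 324 and 630.4 CPM, and in 0.1% FBS 544, 609 and 1176 CPM, so that replicate 3 was the highest at both serum levels. The 2 unreplicated libraries had 540 reads, or 630.4 CPM, in the untreated wild type and 2 reads in the knockout with GFP.

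**Figure D1:**
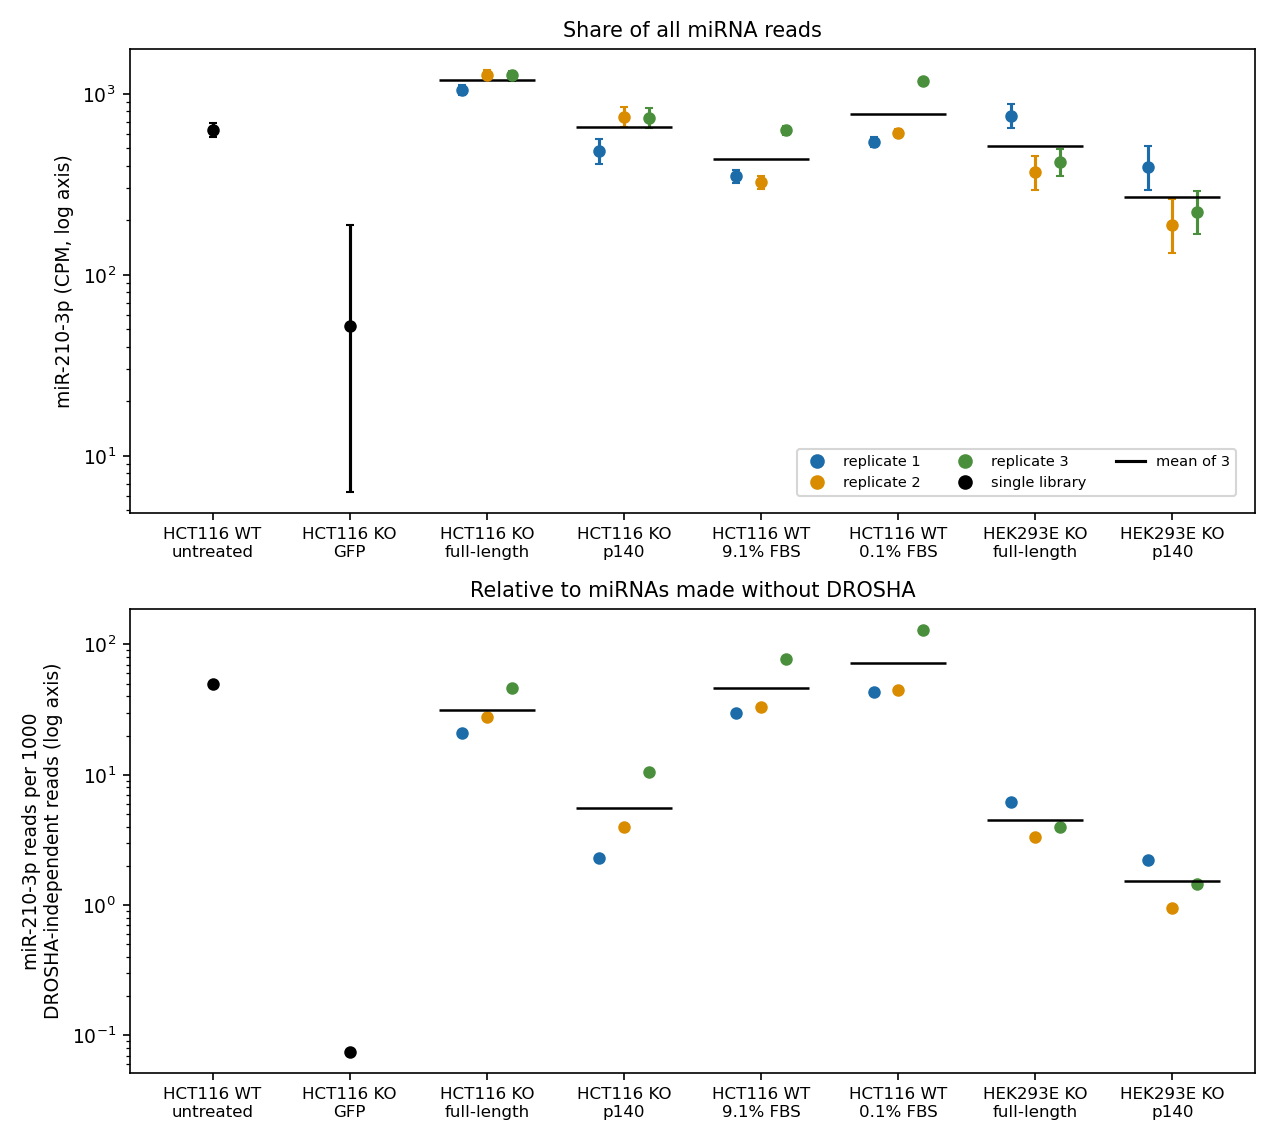
miR-210-3p in each of 20 libraries, as CPM with exact 95% counting intervals (top) and per 1000 reads of miRNAs made without DROSHA (bottom), both on log axes, with the mean of 3 libraries as a line. In CPM the full-length HCT116 libraries are the highest group at a mean of 1194, while on the lower scale the means of the wild-type groups lead and those of both rescues fall below them, with ranges of full-length HCT116 and 9.1% FBS that overlap.

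Ordered by mean CPM, the groups ran from full-length HCT116 (1194 ± 125, SD, n = 3) through 0.1% FBS (776 ± 348), p140 HCT116 (654 ± 149), untreated wild type (630.4), full-length HEK293E (514 ± 209), 9.1% FBS (435 ± 170.0) and p140 HEK293E (268 ± 109) to the knockout with GFP (52.2). Neighbours in this order had overlapping ranges, except that the knockout library lay below every p140 HEK293E library, although its counting interval reached up to 189 CPM, the level of the lowest of them. Spread between replicates was larger than counting error in every replicated group. The coefficient of variation was 10.5% in full-length HCT116 against a median counting error of 3.22% per library, and 44.8% in 0.1% FBS against 2.60%.

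The order changed when miR-210-3p was set against the miRNAs made without DROSHA. Per 1000 reads of that list there were 72.3 reads of miR-210-3p in 0.1% FBS, 49.8 in untreated wild type and 46.5 in 9.1% FBS. There were 31.7 with full-length DROSHA and 5.55 with p140 in HCT116, 4.49 and 1.54 in HEK293E, and 0.0749 in the knockout with GFP. Taken as a percentage of the untreated wild-type library, full-length HCT116 stood at 189% in CPM and 63.6% on this scale, and p140 HCT116 at 104% and 11.1%. A CPM is a share of a library's miRNA reads, so it moves with everything else in the library, and the list's own reads may differ between cells for other reasons. Here, as in any bulk sample, fewer cells making an miRNA and less of it per cell cannot be told apart.

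In the knockout with GFP, miR-210-3p was nearly gone. Its 2 reads of 38288 gave 52.2 CPM, with an exact (Clopper-Pearson) 95% interval of 6.33 to 189, against 540 of 856658 reads and 578 to 686 CPM in untreated wild type. The level was 12.1-fold lower in CPM (exact interval 3.32 to 99.9) and 665-fold lower per read of miRNAs made without DROSHA (183 to 5503). These intervals cover counting error only, and with 1 library each there is no replicate check. Among 96 miRNAs with at least 500 wild-type reads, the median log2 ratio in CPM was -2.77 and that of miR-210-3p was -3.59, with 88 of them having a higher ratio. The 8 epithelial miRNAs summed to 4989 CPM in the knockout and 47848 in the wild type.

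In HCT116 knockout cells miR-210-3p was lower with p140 than with full-length DROSHA. After TMM scaling (edgeR's trimmed-mean adjustment of library sizes), the full-length libraries had 1050.5, 1307 and 1354 CPM and the p140 libraries 486, 762 and 661 CPM, with no overlap. The mean fell from 1237 ± 164 to 636 ± 139 (SD, n = 3), a log2 fold change of -0.96 ± 0.21 (SE; 95% interval -1.45 to -0.47) with an adjusted p of 0.00824 in edgeR's quasi-likelihood test. Within replicate numbers the p140 level was 0.463, 0.583 and 0.488 of the full-length level, so all 3 pairs moved by a like amount. Such a fall was common: of 446 miRNAs tested, 59.6% were called, 31.2% lower and 28.5% higher, and 64.8% had groups that did not overlap. Of all tested, 25.8% had a lower fold change than miR-210-3p.

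The size of the fall depended on the scale. Scaled to the miRNAs made without DROSHA, the change was -2.52 (adjusted p = 0.0321, edgeR), and the median of all miRNAs moved from -0.11 to -1.63, with 0 called higher and 170 lower in place of 127 and 139. Relative to the median of all miRNAs, miR-210-3p was at -0.85 under TMM and -0.88 on the list scale, a value that a change of scale leaves nearly fixed by construction. The share of reads from miRNAs made without DROSHA and the depth moved with the groups, and their part in the result was not tested. Without both libraries of replicate 3, which stood apart, the change was -1.03 (adjusted p = 2.15e-05), and without those of replicate 1 or of replicate 2, with 2 libraries a group left, it was -0.88 (0.0527) and -1.06 (0.0578).

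In HEK293E knockout cells the direction and size were alike, but the spread was wider. The TMM-scaled levels were 767, 352 and 409 CPM with full-length DROSHA and 403, 203 and 227 CPM with p140, and the ranges overlapped because replicate 1 was high in both. The means were 509 ± 225 and 278 ± 109 (SD, n = 3), a log2 difference of -0.89 ± 0.35 (95% interval -1.68 to -0.11) that missed the threshold, with an adjusted p of 0.0962 in edgeR (0.0296 unadjusted). Within replicate numbers the ratios were 0.526, 0.578 and 0.554, and 19.0% of all miRNAs tested had a lower change. With the replicate number as a block in edgeR, miR-210-3p fell by 0.86 ± 0.18 on the log2 scale (adjusted p = 1.67e-05), and the number of miRNAs called went from 110 to 183 of 416. Of these 416, 26.4% were called without the block, 21.2% lower and 5.29% higher, and 42.3% had groups that did not overlap, while 44% were called with the block. Scaled to the miRNAs made without DROSHA, the change was -1.56 (adjusted p = 1.52e-04), with 4 miRNAs called higher and 212 lower in place of 22 and 88. The difference was past the threshold in edgeR without replicate 1 in both groups (-0.81, adjusted p = 0.0256), without full-length replicate 2 (-1.12, 0.0357) and without p140 replicate 1 (-1.14, 0.0269). It was not past it in the other 6 of 9 such fits, among them -0.53 (0.265) without full-length replicate 1, -0.73 (0.268) without p140 replicate 2, -0.77 (0.265) without p140 replicate 3 and -0.90 (0.327) without replicate 3 in both groups. These libraries held 35 to 169 reads of miR-210-3p, which limits the precision.

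**Figure D2:**
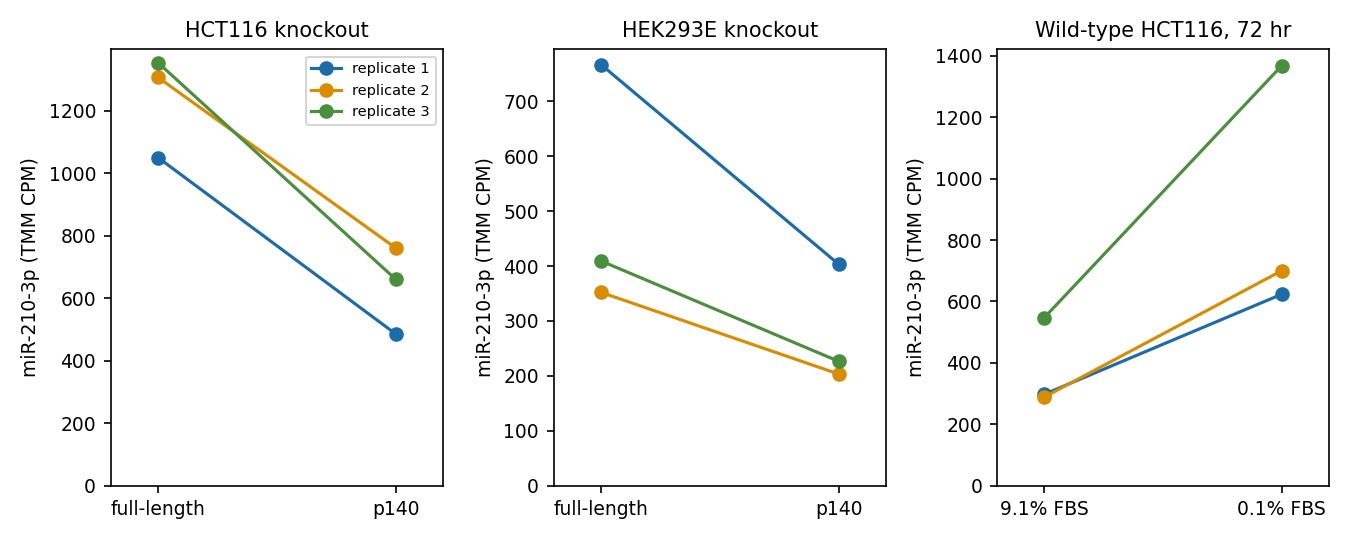
miR-210-3p in TMM-scaled CPM in the 3 replicated comparisons, each line joining the libraries that share a replicate number. All 9 lines run in the direction of the group means, with ratios of 0.463 to 0.583 for p140 over full-length DROSHA and 2.09 to 2.50 for 0.1% over 9.1% FBS.

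The p140 effect was not shown to differ between the lines. The interaction term, fitted to the 12 rescue libraries, was 0.02 ± 0.45 on the log2 scale, with an interval of -0.94 to 0.98 and an adjusted p of 1.00 in edgeR, where 3.3% of 515 miRNAs were called. That interval still allows a difference of nearly 2-fold either way. With the replicate block it was 0.06 ± 0.24 (interval -0.43 to 0.54), where 19.8% were called.

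In wild-type HCT116 cells miR-210-3p was higher after 72 hr in 0.1% than in 9.1% FBS. TMM-scaled levels were 298, 288 and 547 CPM in 9.1% FBS and 623, 700.0 and 1367 CPM in 0.1% FBS, and the groups did not overlap. The mean rose from 378 ± 147 to 897 ± 409 (SD, n = 3), a log2 fold change of 1.25 ± 0.34 (95% interval 0.47 to 2.03) with an adjusted p of 0.0175 in edgeR. Within replicate numbers the rise was 2.09-, 2.43- and 2.50-fold. Of 577 miRNAs tested, 45.8% were called, 25.5% higher and 20.3% lower, and 54.9% had groups that did not overlap. The change of miR-210-3p was above that of 93.6% of them.

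The call of this rise depended on the scale and on single libraries. In plain CPM the change was 0.84 (adjusted p = 0.0696, edgeR), with ratios of 1.55, 1.88 and 1.86 within replicate numbers and 73 miRNAs called higher and 248 lower in place of 147 and 117. Scaled to the miRNAs made without DROSHA it was 0.64 (adjusted p = 0.331), with 22 higher and 241 lower, and with the replicate block on that scale it was 0.58 (adjusted p = 0.00116). The median of all miRNAs moved from -0.03 under TMM to -0.44 and -0.67 on these scales, and miR-210-3p relative to it was at 1.28, 1.28 and 1.30. Members of the list made without DROSHA were themselves called: of 9 tested under TMM, 3 were lower and 2 higher, against 20.3% and 25.5% of all miRNAs. miR-320a, the list member with the highest mean level at both serum levels, was among the higher ones. The part of these members in the scaled change was not tested. In edgeR the adjusted p was 0.0768 without 9.1% FBS replicate 1, 0.0826 without 9.1% FBS replicate 2 and 0.0548 without 0.1% FBS replicate 3, at changes of 1.05, 1.08 and 0.77. Without both libraries of 1 replicate number it was 1.27 (adjusted p = 0.0886, without replicate 1), 1.23 (0.0939, without replicate 2) and 1.21 (2.06e-10, without replicate 3, the pair with the highest levels). With the replicate block the change was 1.23 ± 0.095 (adjusted p = 3.02e-34, edgeR). That p leans on a spread shared over all miRNAs tested and on a pairing that was weak here except for replicate 3. In deviations from group means, same-numbered libraries correlated at 0.26 for replicate 1, 0.15 for replicate 2 and 0.67 for replicate 3. Replicate 1 in 9.1% FBS and replicate 2 in 0.1% FBS correlated at 0.48. The epithelial miRNAs moved with serum too, with 7 of 7 tested called higher in 0.1% FBS and a summed level of 40218 to 44474 CPM in 9.1% against 50350 to 52829 in 0.1% FBS. The markers of other cells summed to 1185 to 2628 and 1283 to 2156 CPM, with 3 of 5 tested called higher (miR-486-5p, miR-142-3p and miR-142-5p). The part of these in the result was not tested.

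**Figure D3:**
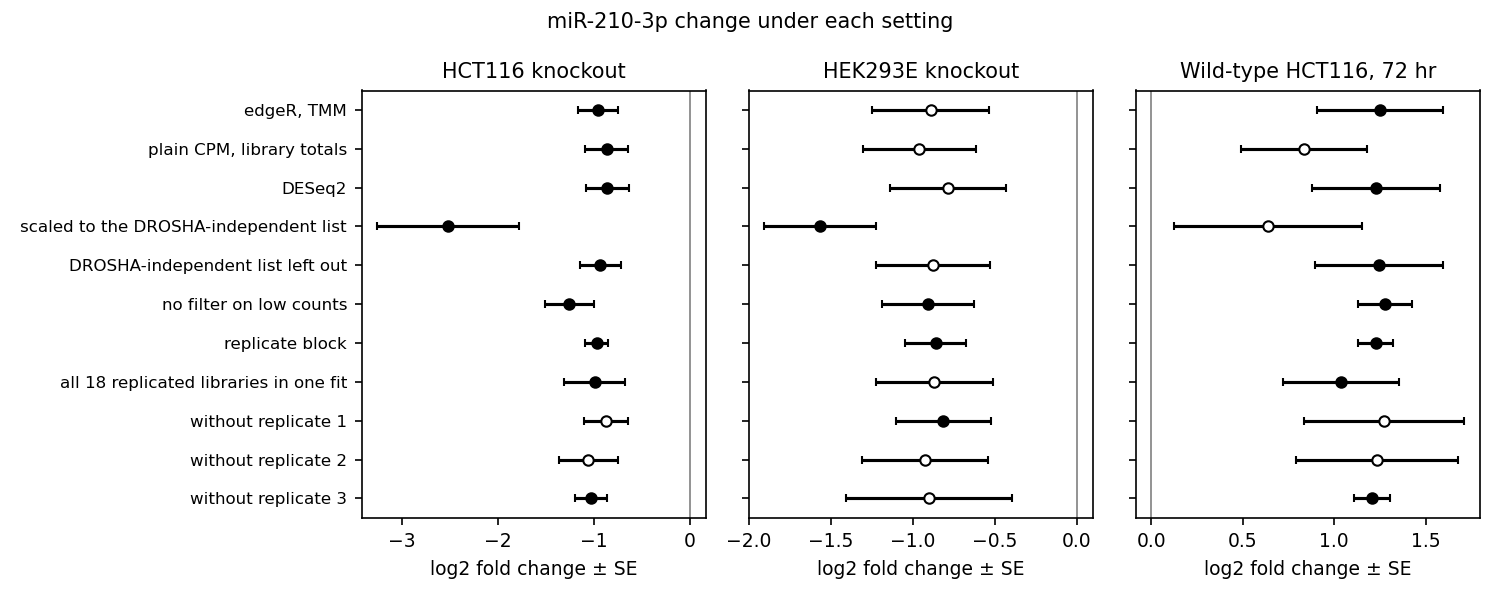
Log2 fold change of miR-210-3p ± SE (x axis) in the 3 replicated comparisons under each setting (rows), filled where the adjusted p is under 0.05. The direction is the same in every row shown, while the fill changes with the scale, the block and the libraries left out.

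Between the lines, miR-210-3p was lower in HEK293E than in HCT116 under either form of DROSHA. In the fit of all 12 rescue libraries the TMM-scaled mean was 359 ± 153 CPM in full-length HEK293E and 1684 ± 209 in full-length HCT116 (SD, n = 3 each), with no overlap. The log2 difference was -2.23 ± 0.30 (adjusted p = 1.33e-05, edgeR), where 61.9% of 515 miRNAs were called, 27.4% lower and 34.6% higher, and 70.5% had groups that did not overlap. Under p140 the means were 199.8 ± 79.1 and 911 ± 182 CPM, also without overlap, a difference of -2.21 ± 0.32 (adjusted p = 2.78e-05), where 55.3% were called, 27.8% lower and 27.6% higher, and 57.7% did not overlap. In plain CPM the differences were -1.21 (adjusted p = 0.00188) and -1.31 (0.00208), and the calls with full-length DROSHA went from 178 higher and 141 lower to 311 and 69. The median of all miRNAs with full-length DROSHA moved from 0.16 to 1.18 between these scales, and miR-210-3p relative to it was at -2.39 and -2.40. The summed epithelial list was low in both rescued lines in plain CPM. Under TMM with full-length DROSHA, 3 of its 6 tested members were called lower in HEK293E (miR-200c-3p, miR-141-3p and miR-194-5p). Only miR-215-5p was called higher, and the list's median was -0.60. Under p140 2 were called lower and 2 higher. Markers of other cells, led by miR-9-5p, summed to 1900 to 2983 CPM in full-length HEK293E and 155 to 332 CPM in full-length HCT116. The part of these lists in the difference was not tested.

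Against wild-type HCT116 in 9.1% FBS, the only replicated wild type in high serum, the full-length rescue had more miR-210-3p and the p140 rescue did not pass the test. The summed epithelial miRNAs of the rescued HCT116 cells were far below those of the wild type. With the full-length rescue 5 of 7 tested members were called lower, all of the miR-200 family, and 2 were not called. With p140 6 were called lower, miR-192-5p among them, and 1 was not called. The part of these miRNAs in the result was not tested. Rescue and serum libraries may have been made apart, which cannot be told apart from genotype. TMM-scaled means were 1198 ± 138 CPM for the full-length rescue, 623 ± 124 for p140 and 462 ± 204 in the wild type (SD, n = 3 each). The full-length difference was 1.37 ± 0.28 in log2 (adjusted p = 0.00184, edgeR), the groups did not overlap, and 55.6% of 563 miRNAs were called, 29.7% higher and 25.9% lower, with 66.8% not overlapping. The p140 difference was 0.43 ± 0.28 (adjusted p = 0.178), where 77.6% were called, 33% higher and 44.6% lower. Without replicate 3 of the wild type it was 0.75 with an adjusted p of 0.00903, and in the other 8 fits that left out a library it was not called. Among these it was 0.11 (0.755) and 0.10 (0.784) without replicates 1 and 2 of the wild type, 0.20 (0.552) and 0.25 (0.441) without replicates 2 and 3 of p140, and 0.28 (0.388) and 0.28 (0.377) without full-length replicates 1 and 3. On the scale of miRNAs made without DROSHA both turned, to -0.56 (adjusted p = 0.452) and -3.07 (0.00142), and the calls became 21 higher and 363 lower, and 23 higher and 449 lower. The median of all miRNAs was then at -1.86 and -3.82, so miR-210-3p stood 1.30 and 0.75 above it, against 1.32 and 0.78 under TMM.

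The 5p arm of the hairpin was scarce everywhere. miR-210-5p had 70 reads in all libraries together, at most 15 in a library, and 0 in 4 of 20 libraries, against 12790 reads of the 3p arm. In full-length HCT116 it made up 0.343% of the reads of both arms (exact 95% interval 0.165 to 0.630), pooled over 3 libraries. In full-length HEK293E it made up 1.74% (0.701 to 3.55), from 7 of 403 reads. The per-library means were 0.353% and 2.01%, and an exact two-sided permutation test gave p = 0.1, the smallest that 3 against 3 libraries allow. For p140 against full-length DROSHA in HCT116 the means were 0.428% and 0.353% (exact permutation p = 0.8), and for 0.1% against 9.1% FBS 0.711% and 0.598% (exact permutation p = 0.7). The full-length HEK293E libraries, at 0.588%, 3.37% and 2.08%, all lay above the full-length HCT116 ones, at 0.478%, 0.270% and 0.310%. The test could not reach 0.05 with this number of libraries. Other groups did not separate by line: HEK293E p140 libraries were at 0%, 0% and 1.79%, and HCT116 p140 libraries at 0%, 0.870% and 0.415%. Wild-type HCT116 libraries in 0.1% FBS were at 0.826%, 1.01% and 0.300%.

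In its change with p140, miR-210-3p lay between the lower quartile and the median of intronic miRNAs. That quartile was -1.36 in HCT116 and -0.91 in HEK293E. The study's title concerns the part that DROSHA's proline-rich disordered domain plays in the processing of miRNAs from introns. Under TMM scaling in rescued HCT116 cells, 109 of 266 intronic miRNAs were called lower and 64 higher, with a median log2 change of -0.39, and 34.2% of them were below miR-210-3p. Of 55 exonic miRNAs 9 were called lower and 16 higher, with a median of 0.25, and of 61 intergenic ones 10 and 20, with a median of 0.37. In HEK293E 68 of 242 intronic miRNAs were called lower and 6 higher, with a median of -0.15, and 25.6% of them were below miR-210-3p. The classes were not cleared of miRNAs made without DROSHA. Of these, 14 of 14 tested were called higher with p140 in HCT116 (28.5% of all miRNAs) and 3 of 11 in HEK293E (5.29% of all). Their number in each class was not counted. In 0.1% FBS the intronic median was -0.09, and 96.4% of 360 intronic miRNAs had a lower signed log2 change than miR-210-3p, falls included.

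Other miRNAs reported to respond to low oxygen went both ways with p140. A list of 22, without miR-210-3p itself, was drawn from general knowledge but with earlier results of these data known. It counts close relatives as separate members. Of its 19 members tested in HCT116, 3 were called lower (miR-192-5p, miR-21-5p and miR-181b-5p) and 3 higher (miR-26b-5p, miR-181a-5p and miR-24-3p). The median log2 change was 0.20 against -0.11 for all miRNAs, of which 31.2% were called lower and 28.5% higher. The largest fall was that of miR-192-5p, a p53-linked miRNA of the intestinal epithelium, at -1.98 ± 0.44 (adjusted p = 0.00863, edgeR). The abundant oncogenic miR-21-5p also fell, by 0.83 ± 0.11 (adjusted p = 9.25e-04), and miR-26b-5p, hosted in a CTDSP gene, was 0.60 ± 0.14 higher under TMM but at -1.003 on the scale of miRNAs made without DROSHA. Leaving out full-length replicate 1 or replicate 2 ended the call of miR-26b-5p (adjusted p = 0.0566 and 0.0558) and left 0 members called higher. Without both libraries of replicate 1 or of replicate 2, 1 member was called lower, and without those of replicate 3, 6. In HEK293E 0 of 20 were called by edgeR, where 26.4% of all miRNAs were, with 1 at an unadjusted p under 0.05 and 0 by DESeq2. On the scale of miRNAs made without DROSHA, 9 of those 20 were called lower, as were 212 of all 416.

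In 0.1% FBS most of the list was higher, as was miR-210-3p. Of 19 tested, 14 were called higher and 0 lower, with 0 lower at an unadjusted p under 0.05 in edgeR and 0 by DESeq2 as well, and the median was 0.47 against -0.03 for all miRNAs, where 25.5% were called higher. The largest rise was that of miR-192-5p, at 1.52 ± 0.14 (adjusted p = 1.15e-04, edgeR). The count fell to 7 in plain CPM, where 4 were called lower, and to 2 on the scale of miRNAs made without DROSHA. It was 7 in a fit of all replicated libraries together, and 8 and 7 without both libraries of replicate 1 and of replicate 2. miR-192-5p is also 1 of the epithelial markers that rose.

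**Figure D4:**
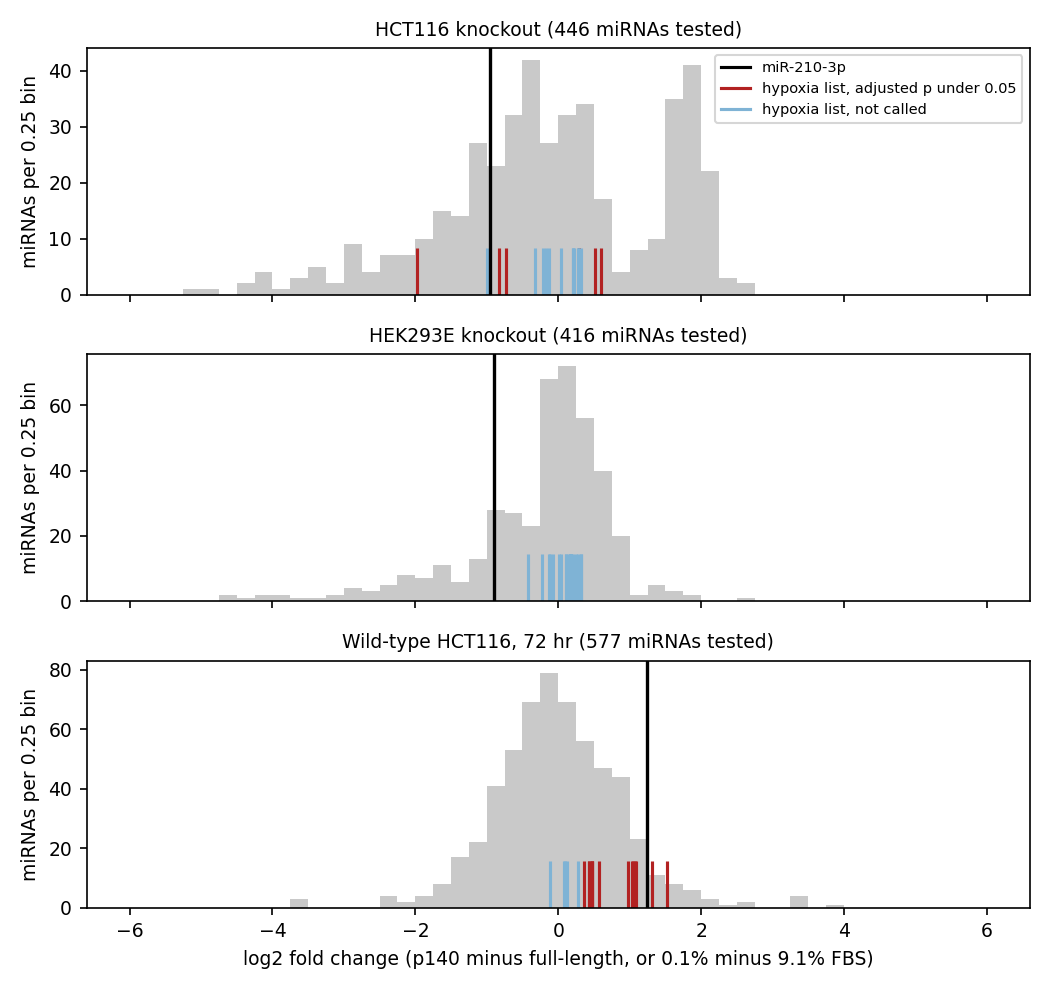
Number of miRNAs per bin of log2 fold change (grey) in the 3 replicated comparisons, with miR-210-3p as a black line and the listed hypoxia-linked miRNAs as short ticks, red where the adjusted p is under 0.05. miR-210-3p lies at -0.96, -0.89 and 1.25, and the list sits to its right in most cases with p140 and mostly to its left in 0.1% FBS.

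A list of 12 miRNAs reported to target HIF subunits or their regulators was also followed. In HCT116, where 31.2% of all miRNAs were called lower and 28.5% higher, 1 of 7 tested was called lower with p140 and 1 higher, namely miR-18a-5p of the miR-17/92 cluster at -1.31 ± 0.35 (adjusted p = 0.0142, edgeR) and miR-31-5p at 0.30 ± 0.091 (0.0223). miR-31-5p lost its call with any single library left out (adjusted p = 0.0628 to 0.249) and turned to -1.24 on the scale of miRNAs made without DROSHA, and miR-18a-5p had an adjusted p of 0.0544 without p140 replicate 2. In HEK293E 0 of 9 were called by edgeR, against 26.4% of all miRNAs, with 1 at an unadjusted p under 0.05 and 0 by DESeq2. In 0.1% FBS, where 45.8% of all miRNAs were called, 3 of 9 were called higher (miR-31-5p, miR-429 and miR-107, which is encoded in a PANK1 intron, at 1.05 ± 0.11 with an adjusted p of 2.00e-04) and 1 lower, miR-22-3p at -0.34 ± 0.12 (adjusted p = 0.0487). The call of miR-22-3p was lost without 9.1% FBS replicate 1 or 2 or 0.1% FBS replicate 2 or 3 (adjusted p = 0.0622, 0.150, 0.149 and 0.0669). No member of either list was called in all 3 comparisons.

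The miRNAs whose levels ran most like those of miR-210-3p included both arms of the miR-21 hairpin. Likeness was Pearson's r of log2(TMM CPM + 1) over the 18 libraries of the replicated groups, among 357 miRNAs with a mean of at least 100 CPM in any group. An miRNA could thus enter through the groups where it was high. It is given as a description, since these libraries share cell line, genotype and depth within groups. The highest were miR-34a-3p (r = 0.92), miR-21-3p (0.90), let-7i-3p (0.90), let-7g-3p (0.90) and miR-21-5p (0.88), against a median of 0.20, and 78 miRNAs were over 0.7. These r values take in the difference between the lines: over group means alone they were 0.92 to 0.95 for these 5. Within groups, after group means were removed, r was 0.60 to 0.78. let-7i-3p and let-7g-3p did not pass the count filter in HEK293E, so their p140 change was not tested there. Their changes in the tests were mixed: with p140 in HCT116 miR-21-3p fell by 1.15 ± 0.16 (adjusted p = 0.00127, edgeR) and let-7i-3p by 1.19 ± 0.25 (0.00758), while miR-34a-3p was at -0.03 (0.920). In 0.1% FBS miR-34a-3p, the passenger arm of a p53-induced hairpin, rose by 1.14 ± 0.16 (adjusted p = 6.86e-04), while miR-21-3p was at 0.37 (0.136).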

How the data were processed

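Small RNA was sequenced in 20 libraries of 2 cell lines. Per the labels' protocols, TRIzol RNA was treated with DNase, mixed with spike-in RNAs, selected by size on a gel, joined to randomized adaptors and read on a MiSeq. The submitters' processing notes name cutadapt, STAR, bedtools and hg38. The deposited values are raw read counts of mature miRNAs, with 2813 values per library. Versions and the handling of reads that map to several places are not stated. The spike-ins were not used here.

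An miRNA listed at several hairpins was given its highest copy. CPM are reads per 1000000 miRNA reads, with exact Clopper-Pearson 95% intervals, which cover counting error only, because PCR copies are not told from separate molecules. Groups came from sample titles. Tests were edgeR's (version 4.0.16, R 4.3.3), with its quasi-likelihood fit, TMM scaling, a filter (filterByExpr with a minimum count of 10), Benjamini-Hochberg adjustment over all miRNAs tested, a threshold of 0.05 and two-sided p-values, and each experiment was fitted alone. The tests were checked on simulated data. Alternatives were DESeq2 1.42.0, other scalings, no filter, a fit of all replicated libraries, left-out libraries and a replicate block. With the block, few libraries remain to estimate the spread of any miRNA, so its p-values lean on a spread shared over all miRNAs tested. Leaving out both libraries of a replicate number, and the block joined with list scaling, were chosen after seeing the data. The members and lists were chosen with earlier results of these data known.

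By the data, replicate numbers in the titles paired libraries only in part. Deviations of same-numbered libraries from group means correlated at 0.32 to 0.64 in rescued HCT116, 0.29 to 0.46 in HEK293E and 0.15 to 0.67 in the serum experiment. In HCT116 mainly replicate 3 stood apart, and some differently numbered libraries correlated as well or better (9.1% FBS replicate 1 with 0.1% FBS replicate 2 at 0.48, and full-length replicate 2 with p140 replicate 1 in HCT116 at 0.32). The labels do not say that replicates were separate cultures, so a p-value measures no more than the spread of these libraries, which may be technical. Named besides miR-210-3p and miR-210-5p were the largest called fall and rise of each list per comparison, miRNAs called in all 3 replicated comparisons, seed relatives and the 5 most correlated miRNAs. miR-147b, miR-181b-5p and miRNAs named to fill out a small count were chosen after their values were seen.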

Additional observations from a re-analysis of the deposited data

Results flagged for a closer look

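miR-181b-5p, a member of the list of miRNAs reported to respond to low oxygen, was the only one of miR-210-3p, the 2 hypoxia-linked lists and the 5 correlated miRNAs whose p140 effect differed between the lines in edgeR's test of the difference itself without a replicate block. With the block miR-192-5p, miR-21-5p and miR-18a-5p passed it too. It fell with p140 in HCT116 (log2 fold change -0.73 ± 0.13, adjusted p = 0.00360, edgeR) and was at 0.17 ± 0.13 in HEK293E (adjusted p = 0.378). The HEK293E effect minus the HCT116 effect was 0.85 ± 0.21, with an adjusted p of 0.0394 in edgeR. That p ranged from 3.78e-05 to 0.345 over 7 other settings and from 0.00959 to 0.174 when single libraries were left out, where 4 of 12 kept the call.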

How the results depend on the processing

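For miR-210-3p the fall with p140 in HCT116 and the lower level in HEK293E than in HCT116 kept their direction and call under every setting that used all replicates (DESeq2, plain CPM, list scaling, list left out, no filter, replicate block and, for the former, all replicated libraries in one fit). Leaving out libraries gave -1.10 to -0.81 in HCT116, -1.14 to -0.53 in HEK293E, 0.77 to 1.61 in 0.1% FBS, -0.29 to 0.60 for the difference between lines and 0.10 to 0.75 for p140 against 9.1% FBS. The HEK293E change with p140 passed the threshold on the list scale (-1.56), without the filter (-0.91), with the replicate block (-0.86) and with block and list scaling (-1.57). The serum change missed it in plain CPM (0.84) and on the list scale (0.64). The difference between lines was -0.093 in plain CPM and -0.050 with the list left out, not called in either, and 1.15 (adjusted p = 0.0376, edgeR) with block and list scaling, where the median of all miRNAs was 0.997. Against 9.1% FBS, full-length DROSHA was at -0.56 on the list scale and -0.49 with the block added, and p140 at -3.07 and -3.20, at -0.028 without the filter and, with the replicate block, at 0.47 (adjusted p = 0.0228), though same-numbered libraries there correlated at as little as 0.044. Under TMM scaling the block changed no other call of miR-210-3p, and on the list scale it brought the serum change back past the threshold (0.58, adjusted p = 0.00116, edgeR). Same-numbered serum libraries correlated there at as little as 0.15. The block moved the miRNAs called from 17 to 102 for the difference between lines. The knockout log2 ratio was -9.38 on the list scale. Signs turned on the list scale, without and with the block, for miR-181b-5p in HEK293E (-0.54, -0.55), miR-21-5p in 0.1% FBS (-0.22, -0.22), miR-26b-5p in HCT116 (-1.003, -1.14) and miR-31-5p in HCT116 (-1.24, -1.45, and -0.0076 without the filter). The list scale divides by another set of reads; the cause of the other changes was not tested. Over all settings of the called listed and correlated miRNAs, 188 values kept their call, 62 lost it and 7 turned sign. Of the counts of list members, 75 moved by over 1.5 times and 129 did not. Depth limits HEK293E, with 35 to 169 reads of miR-210-3p, and the knockout with GFP, with 2.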
